A study of Mus musculus with 32 samples.

Results

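The 37 genes described here encode the steps of glucose use from uptake to lactate export and the cell's response to low oxygen. They were taken by name from the 46517 genes of the deposited expression table, as 26 glycolytic genes and 11 hypoxia genes. The glycolytic genes comprise glucose carriers, enzymes of upper and lower glycolysis, lactate dehydrogenases with lactate carriers, and kinases that steer the flux. The hypoxia genes comprise the oxygen sensor system and known targets of hypoxia-inducible factor. All 37 reached at least 1 TPM (a level scaled by transcript length and library total) in at least 4 of the 32 libraries, the condition for testing. Names are those of the table, in which Ero1l is the gene now called Ero1a.

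RNA was sequenced in bulk from Pmel CD8 T cells, sorted as Thy1.1 positive, whose transgenic antigen receptor recognises a melanocyte protein. All mice were C57BL/6, labelled 16 weeks old and with the disease state melanoma-associated vitiligo, the naive samples included. The 8 groups of 4 libraries were naive cells from spleen, day 12 cells of the lymph node draining the tumor, lymph node memory cells, and cells of 5 other tissues: tumor, spleen, liver, lung and skin. Lymph node memory, skin, lung and liver were sampled 45 days after tumor surgery, whereas the sources used here give no time for tumor, spleen or naive samples. Lymph nodes were dissociated mechanically, skin, lung and liver were digested with enzymes, and the sources used here do not give the handling of tumor or spleen, so tissue and dissociation cannot be told apart. Whether the libraries of a group are separate animals is not in the labels, and p-values therefore cover only library-to-library spread, which may be technical.

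TPM values are scaled by transcript length and to the same sum in every library. Read depth is therefore unknown, and fewer cells of a type cannot be told apart from less RNA per cell. The 16 T cell identity genes, among them the CD3 and CD8 chains, were detected in every group, but their summed level ranged from 3318 TPM in liver replicate 4 to 43700 TPM in naive replicate 4. In 6 libraries the sum lay under 0.5 of the median over all libraries: replicate 4 of skin, spleen and tumor, and replicates 2 to 4 of liver. Counts that rest on these groups are given with and without them. Residual spread on the log2 scale ran from an SD of 0.303 in the day 12 lymph node to 1.33 in liver. Errors are standard errors (SE) for log2 changes and standard deviations (SD) otherwise, with n = 4 libraries per group.

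Glycolysis converts glucose to pyruvate in the cytosol. When T cells are activated they raise glucose uptake and turn much of the pyruvate into lactate, a change known as aerobic glycolysis and driven by Myc, mTOR and HIF-1. HIF-1 is a pair of proteins whose alpha subunit, the product of Hif1a, is marked for destruction by the prolyl hydroxylases Egln1 and Egln3 while oxygen is present. When oxygen is low the subunit persists, binds the core letters ACGTG or GCGTG, and switches on glycolytic enzymes, Vegfa, Bnip3 and P4ha1, among others. Hif1a is regulated largely at the protein level, which RNA does not show.

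The HIF core was searched because HIF-1 is a known regulator of many of these genes. RefSeq promoter windows of build GRCm38.p6, from 250 bases before to 50 bases after a transcript start, were found for 34 of the 37 genes, with 48 starts. Slc2a3, Bnip3l and Ndrg1 had no window. Searched on both strands, ACGTG or GCGTG stood in 39 of the 48 windows (81.25%), against 43.77% of all 32851 promoter windows of the same length. The share was 90.0% in the 10 windows of hypoxia genes and 78.95% in the 38 windows of glycolytic genes. Base composition differed alongside, with a mean GC content of 62.2% in the windows of these genes and 53.8% in all windows, and its part in the motif shares was not tested. The E-box CACGTG, the site bound by Myc, holds the ACGTG core on both strands, and it stood in 12.5% of the windows against 7.15% of all. A match describes the letters and shows no binding.

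Upstream sequences of 5 genes that differed between groups below are shown to set cores beside their expression. Each runs 5′ to 3′ on the gene's own strand over the 250 bases before the start, with capitals marking every ACGTG or GCGTG and their reverse complements. Bnip3 (minus strand of chr7:138909507-138909756), a mitophagy receptor, held 5 cores, of which 2 are the strands of 1 E-box. Ldha (plus strand of chr7:46845554-46845803, the upstream one of its 2 listed starts), the lactate dehydrogenase of activated T cells, held 5 cores, 4 of them in 2 E-boxes. The window of its other start held 2 cores and no E-box. Pgk1 (plus strand of chrX:106186850-106187099), which makes the first ATP of glycolysis, held 2. P4ha1 (plus strand of chr10:59323046-59323295), a collagen prolyl hydroxylase, held 3. Vegfa (minus strand of chr17:46032378-46032627, the upstream one of its 2 listed starts), the vascular growth factor, held none in these bases, while the window of its other start held 2.
Bnip3: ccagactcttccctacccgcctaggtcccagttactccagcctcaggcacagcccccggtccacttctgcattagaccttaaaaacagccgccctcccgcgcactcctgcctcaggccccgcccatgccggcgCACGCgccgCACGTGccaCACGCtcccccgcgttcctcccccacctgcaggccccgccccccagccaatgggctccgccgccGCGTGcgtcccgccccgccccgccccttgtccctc
Ldha: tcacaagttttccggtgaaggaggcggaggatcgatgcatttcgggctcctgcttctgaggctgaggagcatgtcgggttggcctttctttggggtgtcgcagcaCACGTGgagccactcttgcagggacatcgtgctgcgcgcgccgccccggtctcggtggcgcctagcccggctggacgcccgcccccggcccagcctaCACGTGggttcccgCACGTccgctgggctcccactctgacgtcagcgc
Pgk1: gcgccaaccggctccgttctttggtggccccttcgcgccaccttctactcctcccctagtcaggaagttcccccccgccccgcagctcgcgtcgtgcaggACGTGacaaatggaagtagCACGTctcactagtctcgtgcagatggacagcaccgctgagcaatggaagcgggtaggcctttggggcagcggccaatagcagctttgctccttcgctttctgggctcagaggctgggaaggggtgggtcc
P4ha1: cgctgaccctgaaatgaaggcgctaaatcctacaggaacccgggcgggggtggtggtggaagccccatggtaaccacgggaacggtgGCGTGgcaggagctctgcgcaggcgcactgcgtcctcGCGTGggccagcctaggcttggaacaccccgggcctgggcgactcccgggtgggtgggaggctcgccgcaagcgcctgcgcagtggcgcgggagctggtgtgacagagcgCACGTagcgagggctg
Vegfa: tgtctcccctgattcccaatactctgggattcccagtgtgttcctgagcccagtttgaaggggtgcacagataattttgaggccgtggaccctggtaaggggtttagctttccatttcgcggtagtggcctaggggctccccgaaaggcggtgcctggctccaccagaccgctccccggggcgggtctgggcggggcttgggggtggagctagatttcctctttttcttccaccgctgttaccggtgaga

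Across the 8 groups, the group means of the glycolytic genes were highest mainly in tumor, and those of the hypoxia genes mainly in skin. Of the 26 glycolytic genes, 15 had their highest group mean in tumor and 3 in the day 12 lymph node. Of the 11 hypoxia genes, 6 had it in skin and 3 in tumor. The share of all genes with their highest mean in each group is not given here. Between skin and tumor directly, none of the 11 was called. A test across all groups (limma's F test, Benjamini-Hochberg adjusted p under 0.05 over 19738 genes, the threshold used throughout) called 20 glycolytic and 7 hypoxia genes, 27 of 37, beside 46.9% of all genes. The 7 lower glycolysis genes were all called, and 8 of 9 in upper glycolysis. The heat map of group means shows the tumor and day 12 columns high through the enzymes, and the skin column high among hypoxia genes.

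**Figure D1:**
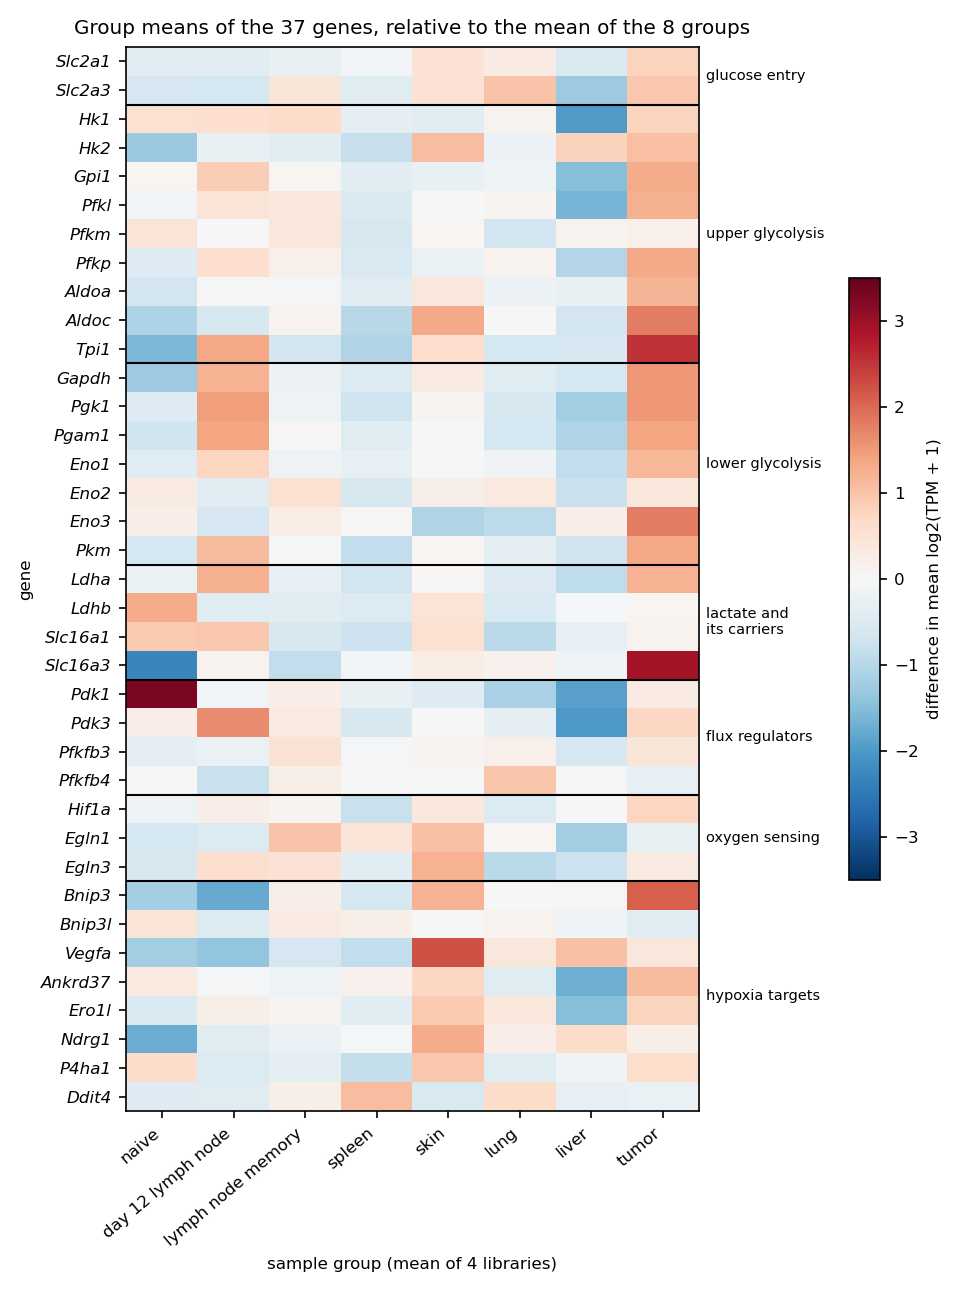
Mean log2(TPM + 1) of each of the 37 genes (rows, by role) in each of the 8 groups (columns, 4 libraries each), as the difference from the gene's mean over the groups, in log2 units. Red is higher and blue lower; Pdk1 stands out in naive cells, the enzymes in tumor and the day 12 lymph node, and Vegfa in skin.

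The summed level of the 26 glycolytic genes was 9691 ± 1891 TPM in tumor and 7396 ± 347 TPM in the day 12 lymph node. It was 4674 ± 1923 TPM in skin, where replicate 4 lay at 1871 TPM and the others between 5266 and 6251 TPM. The remaining groups had means between 2692 TPM in liver and 3421 TPM in lymph node memory cells. Gapdh, Eno1, Ldha, Aldoa and Pkm, the most abundant on this scale, made up 69.85% of the sum in naive cells and between 77.3% and 79.8% in the other groups. The 11 hypoxia genes moved over a narrower range, from 336 ± 35.5 TPM in the day 12 lymph node to 588 ± 194 TPM in skin. Bnip3l, a mitophagy receptor related to Bnip3, was the most abundant of the 11 in every library, at 124 to 460 TPM.

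**Figure D2:**
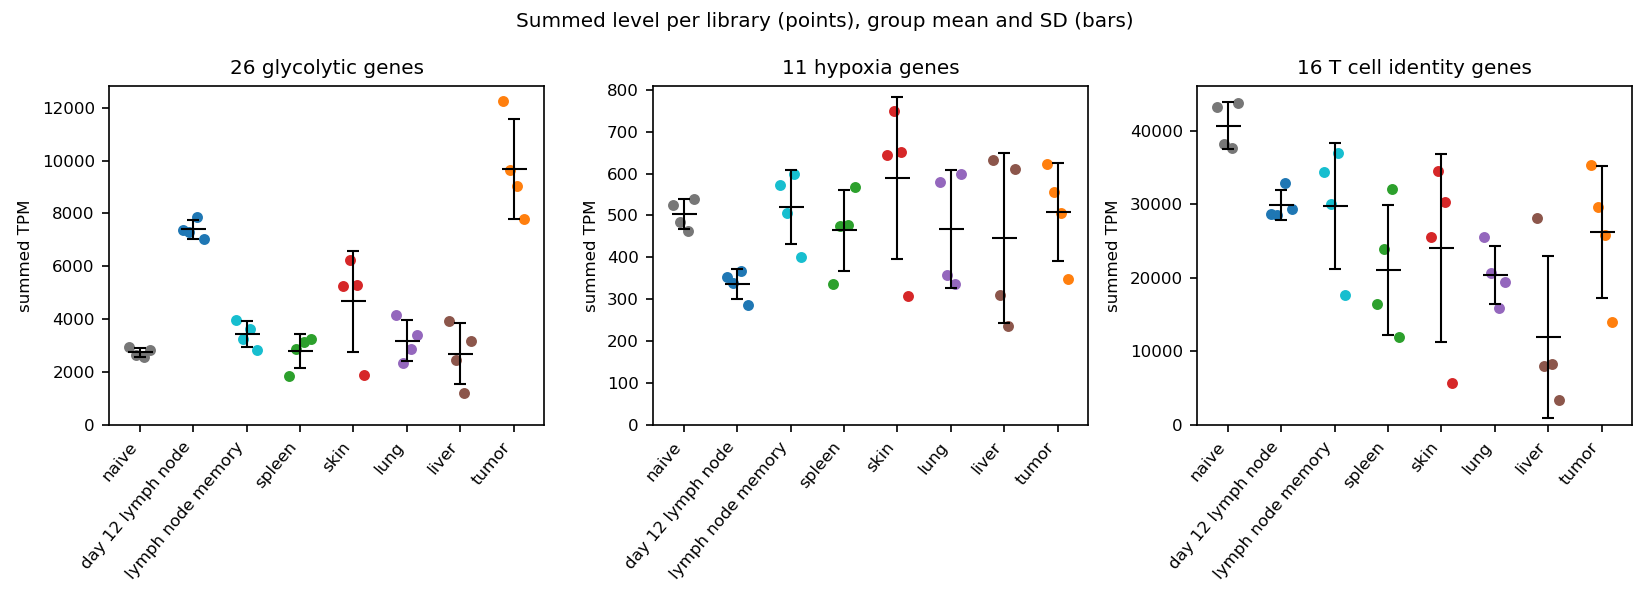
Summed TPM (vertical axes, from 0) of the 26 glycolytic genes, the 11 hypoxia genes and the 16 T cell identity genes in each library (points), with group mean and SD (bars). All 4 tumor libraries, at 7777 to 12271 TPM, lie above every library outside the tumor and day 12 groups for the glycolytic genes; 1 skin library lies apart from the other 3.

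The day 12 lymph node was compared with naive cells. Naive cells came from spleen and day 12 cells from the node draining the tumor, so activation, tissue and tumor cannot be told apart. Of the 7 lower glycolysis genes 4 rose, as did Tpi1 and Ldha, and Pdk1 fell. In all, 7 of 37 genes were called (18.9%), 6 higher and 1 lower, beside 11.1% of all genes, with 5.95% higher and 5.14% lower. All 7 were glycolytic, and none of the 11 hypoxia genes was called. The median log2 change was 0.62 over the glycolytic genes, 0.02 over the hypoxia genes and -0.19 over all genes.

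Tpi1, which interconverts the triose phosphates, stood at 37.43, 33.62, 29.53 and 34.9 TPM in the 4 naive libraries and at 270.7, 271.58, 273.34 and 238.56 TPM in the day 12 lymph node. The groups lie far apart, with a log2 change of 2.93 ± 0.29 (adjusted p = 1.48e-08). Gapdh, the glyceraldehyde phosphate dehydrogenase, read 428.84, 345.86, 338.67 and 363.67 TPM in naive cells and 1915.22, 1891.18, 2234.63 and 2274.68 TPM on day 12, a change of 2.49 ± 0.33 (adjusted p = 1.81e-06). Every day 12 library thus held more Gapdh than any naive library by a wide margin. Pgk1 went from 92.19, 81.41, 72.25 and 79.67 TPM to 298.8, 326.62, 325.05 and 287.2 TPM (1.92 ± 0.40, adjusted p = 0.00114). Pgam1, the phosphoglycerate mutase, went from 75.29, 68.73, 62.75 and 68.38 TPM to 297.59, 315.17, 309.62 and 260.01 TPM (2.09 ± 0.38, adjusted p = 0.000203). Neither gene's groups overlapped. Pkm, the pyruvate kinase, rose from a mean of 190 to 635 TPM (1.73 ± 0.48, adjusted p = 0.0146).

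Ldha, which turns pyruvate into lactate, read 592.47, 547.23, 522.73 and 599.58 TPM in naive cells and 1596.06, 1625.52, 1652.05 and 1424.99 TPM on day 12. It rose by 1.48 ± 0.36 on the log2 scale (adjusted p = 0.00597), and its groups did not overlap. Pdk1, a kinase that restrains the use of pyruvate inside mitochondria, went the other way. It read 226.79, 232.93, 221.94 and 222.83 TPM in naive cells and 23.38, 25.07, 19.58 and 15.22 TPM on day 12, and it fell by 3.40 ± 0.64 (adjusted p = 0.000300). Outside naive cells Pdk1 did not exceed 69.93 TPM in any library.

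The fit shares 1 estimate of spread over all 8 groups, and naive and day 12 libraries varied least. Fitted on these 2 groups alone, 28 of the 37 genes were called, beside 54.4% of all genes, and without the 6 libraries low in T cell transcripts 18 were called, beside 22.9% of all genes. Groups without overlap numbered 17 genes higher and 10 lower of 37, beside 19.5% and 31.7% of all genes. B cell markers summed to 219 to 300 TPM on day 12 and 846 to 1003 TPM in naive cells, and erythroid markers to 0.85 to 2.62 and 338 to 943 TPM. Stromal and endothelial markers (28.0 to 39.0 against 59.3 to 85.1 TPM) and keratinocyte markers (9.29 to 11.65 against 14.95 to 22.45 TPM) were also lower on day 12 without overlap, and NK cell markers higher (29.7 to 32.9 against 2.48 to 6.0 TPM). Few genes of these lists reached 1 TPM in a library. Of the 10 stromal and endothelial genes, 1 did on day 12 and 2 in naive cells. Of the 11 keratinocyte genes 3 did in each group, and of the 7 NK cell genes 3 on day 12 and 2 in naive cells. Such sums alone do not show that these other cells were present. The part of all these markers in the results was not tested.

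**Figure D3:**
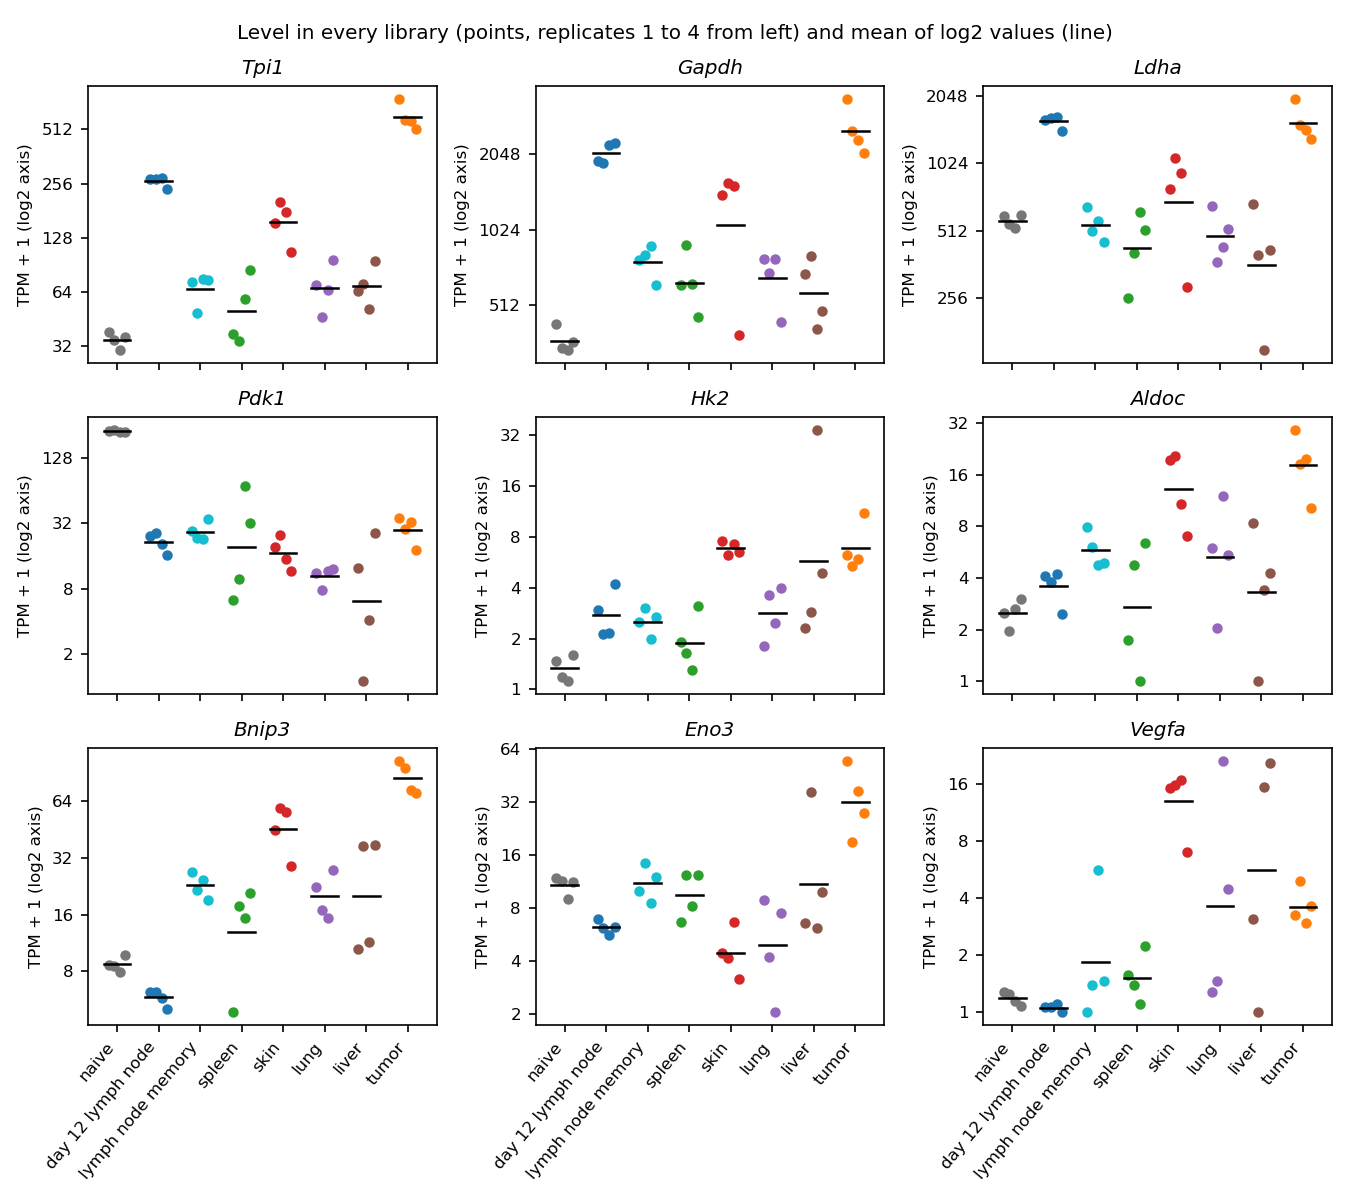
TPM + 1 on log2 axes for 9 genes in every library (points, replicates 1 to 4 from left within each group), with the mean of the log2 values as a line. Tpi1, Gapdh and Ldha are high in the day 12 lymph node and tumor, Pdk1 is high in naive cells, and Vegfa is at 5.99 to 15.77 TPM in skin but at 0.1 to 1.23 TPM in spleen.

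Spleen cells and naive cells, both from spleen, differed in 3 of 37 genes (8.11%), 1 higher and 2 lower, beside 6.08% of all genes, with 3.62% higher and 2.46% lower. Pdk1 fell here too, by 3.55 ± 0.64 (adjusted p = 0.000436), with spleen libraries at 5.28, 8.95, 69.93 and 31.19 TPM. Ndrg1, a stress-induced gene, read 1.65, 2.3, 2.06 and 1.85 TPM in naive cells and 5.1, 13.91, 5.58 and 11.65 TPM in spleen, a change of 1.66 ± 0.46 (adjusted p = 0.0249). Every spleen library exceeded every naive library for Ndrg1. P4ha1 read 26.59, 25.48, 24.16 and 24.46 TPM in naive cells and 5.21, 2.42, 19.4 and 18.14 TPM in spleen, and it fell by 1.45 ± 0.45 (adjusted p = 0.0480). Without any 1 naive library the calls of Ndrg1 and P4ha1 were lost, with adjusted p between 0.0507 and 0.112, and without spleen replicate 2 they stood at 0.106 and 0.259. P4ha1 was lost without spleen replicate 1 too (0.164) and Ndrg1 without spleen replicate 4 (0.0629). The P4ha1 call was also lost with no filter (0.0776), a pseudocount of 0.1 (0.0657) and only these 2 groups fitted (0.164). Without spleen replicate 3 the count was 5, with the share of all genes called in that fit not given here. Without the 6 libraries low in T cell transcripts the count was 10, 3 higher and 7 lower, beside 22% of all genes. The naive group is the reference both here and for day 12, so the Pdk1 results are not independent. Markers of other cells separated the groups: myeloid markers summed to 879 to 9339 TPM in spleen and 154 to 184 TPM in naive cells, B cell markers to 1882 to 19115 and 846 to 1003 TPM, and hepatocyte markers to 47.4 to 352 and 1.49 to 7.56 TPM. NK cell (12.9 to 108 against 2.48 to 6.0 TPM) and lung epithelial markers (8.72 to 22.9 against 3.81 to 7.34 TPM) were higher in spleen too, and stromal and endothelial markers lower (14.3 to 58.9 against 59.3 to 85.1 TPM). Of the 7 NK cell genes, 7 reached 1 TPM in a spleen library and 2 in a naive library. For the 10 stromal and endothelial genes these numbers were 4 and 2. The part of all these markers in the results was not tested.

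Cells from tumor were compared with those from spleen. At least 1 gene was called higher in tumor at each enzyme step from hexokinase to lactate dehydrogenase except phosphofructokinase, and Bnip3 was called too. The phosphofructokinases were not called but lay above spleen without overlap. Pfkp stood at 179.29 to 288.45 TPM in tumor and 35.8 to 98.86 TPM in spleen. Pfkl stood at 43.19 to 63.81 and 4.64 to 33.04 TPM, and Pfkm at 2.64 to 3.19 and 0.81 to 2.41 TPM. Of 37 genes, 13 were called (35.1%), all higher, beside 6.25% of all genes in either direction and 3.42% higher. The 13 were 12 of 26 glycolytic genes and 1 of 11 hypoxia genes. Median log2 changes were 1.62 over the glycolytic genes, 0.96 over the hypoxia genes and -0.03 over all genes. Tumor libraries lay wholly above spleen libraries for 17 glycolytic and 3 hypoxia genes, beside 6.86% of all genes.

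In upper glycolysis, Tpi1 stood at 36.29, 33.38, 57.98 and 84.02 TPM in spleen and at 756.91, 575.74, 567.01 and 515.05 TPM in tumor, a change of 3.57 ± 0.29 (adjusted p = 9.41e-10). This was the largest change among the 37 genes in this comparison. Aldoc, a minor aldolase, read 0.73, 3.78, 0.0 and 5.37 TPM in spleen and 28.34, 17.52, 18.88 and 9.18 TPM in tumor (2.76 ± 0.58, adjusted p = 0.00255). The main aldolase, Aldoa, read 239.64, 343.57, 404.45 and 415.52 TPM in spleen and 1346.34, 1079.1, 968.87 and 797.91 TPM in tumor (1.58 ± 0.32, adjusted p = 0.00188). Both aldolases were higher in every tumor library. Hk2, the inducible hexokinase that traps glucose in the cell, read 0.9, 0.64, 0.3 and 2.11 TPM in spleen and 5.28, 4.4, 4.91 and 10.03 TPM in tumor (1.86 ± 0.52, adjusted p = 0.0250). Without tumor replicate 4 its adjusted p was 0.100, and without spleen replicate 2 or 3 it was 0.0626 or 0.0800. Gpi1, the glucose phosphate isomerase, rose by 1.66 ± 0.51 (adjusted p = 0.0471), from a mean of 85.6 to 267 TPM. Its call held in only 1 of 8 fits that each left out a library, and the adjusted p in the other 7 lay between 0.0647 and 0.130. It was lost with no filter (0.0829) and a pseudocount of 0.1 (0.0681) as well.

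In lower glycolysis, Gapdh read 617.89, 893.45, 623.83 and 459.12 TPM in spleen and 3410.57, 2541.0, 2324.83 and 2073.51 TPM in tumor (2.01 ± 0.33, adjusted p = 0.000127). Pgk1 read 66.41, 54.16, 70.89 and 86.11 TPM in spleen and 394.18, 323.94, 293.9 and 265.45 TPM in tumor (2.19 ± 0.40, adjusted p = 0.000578). In both genes every tumor library stood well above the highest spleen library. Pgam1 read 55.02, 87.88, 76.54 and 128.39 TPM in spleen and 349.6, 287.03, 304.52 and 245.15 TPM in tumor (1.81 ± 0.38, adjusted p = 0.00239). Eno3, the enolase best known from muscle, read 5.66, 11.32, 7.24 and 11.33 TPM in spleen and 54.12, 17.98, 35.99 and 26.6 TPM in tumor (1.75 ± 0.47, adjusted p = 0.0190). The tumor libraries vary widely for Eno3, and the call was lost without tumor replicate 1 (adjusted p = 0.0814). It was also lost without tumor replicate 3 or spleen replicate 1 or 3, at 0.0601, 0.0602 and 0.0524. Pkm rose by 2.20 ± 0.48 (adjusted p = 0.00351) and Eno1, the main enolase, by 1.45 ± 0.41 (adjusted p = 0.0306). The Eno1 call was lost without tumor replicates 1, 2 or 3 or spleen replicates 1 or 2, the highest adjusted p being 0.107, and with no filter (0.0557). Ldha read 256.01, 403.6, 620.41 and 512.07 TPM in spleen and 1987.38, 1513.18, 1437.6 and 1309.5 TPM in tumor, a rise of 1.85 ± 0.36 (adjusted p = 0.00126).

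Among hypoxia genes, Bnip3 read 3.85, 16.76, 14.32 and 19.75 TPM in spleen and 104.12, 94.7, 72.01 and 70.08 TPM in tumor, a rise of 2.72 ± 0.41 (adjusted p = 4.43e-05). No spleen library came near the tumor range. Ankrd37 read 33.96, 25.46, 27.0 and 27.01 TPM in tumor and 11.09, 6.03, 22.18 and 24.88 TPM in spleen. It lay above spleen in every tumor library but was not called. Hif1a itself was at 103.66, 105.58, 104.53 and 48.18 TPM in tumor and 16.31, 36.24, 20.33 and 57.81 TPM in spleen, which overlap, and was not called. Without the 6 libraries low in T cell transcripts, 24 of 37 genes were called, all higher, 19 glycolytic and 5 hypoxia genes, beside 13.6% of all genes. Hif1a, Ankrd37, Slc2a1 and Slc2a3 were among those added.

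Markers of other cells moved with this comparison. The 9 melanocyte and melanoma markers summed to 429 to 998 TPM in tumor, where all 9 reached 1 TPM in a library, and to 7.34 to 21.1 TPM in spleen, where 4 did. In tumor replicates 1 to 4 their sums were 429, 998, 466 and 446 TPM. The glycolytic sums of these libraries were 12271, 9661, 9056 and 7777 TPM, and the T cell identity sums 35331, 29628, 25876 and 14025 TPM. The 8 erythroid markers found in the table summed to 3609 to 12467 TPM in tumor and 69.5 to 1187 TPM in spleen, and the 10 B cell markers to 61.0 to 142 TPM in tumor and 1882 to 19115 TPM in spleen. Keratinocyte markers (86.05 to 553 against 11.8 to 29.4 TPM) and stromal and endothelial markers (89.9 to 481 against 14.3 to 58.9 TPM) were also higher in tumor without overlap, and myeloid (440 to 659 against 879 to 9339 TPM) and hepatocyte markers (7.12 to 11.9 against 47.4 to 352 TPM) lower. Their part in the results was not tested.

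**Figure D4:**
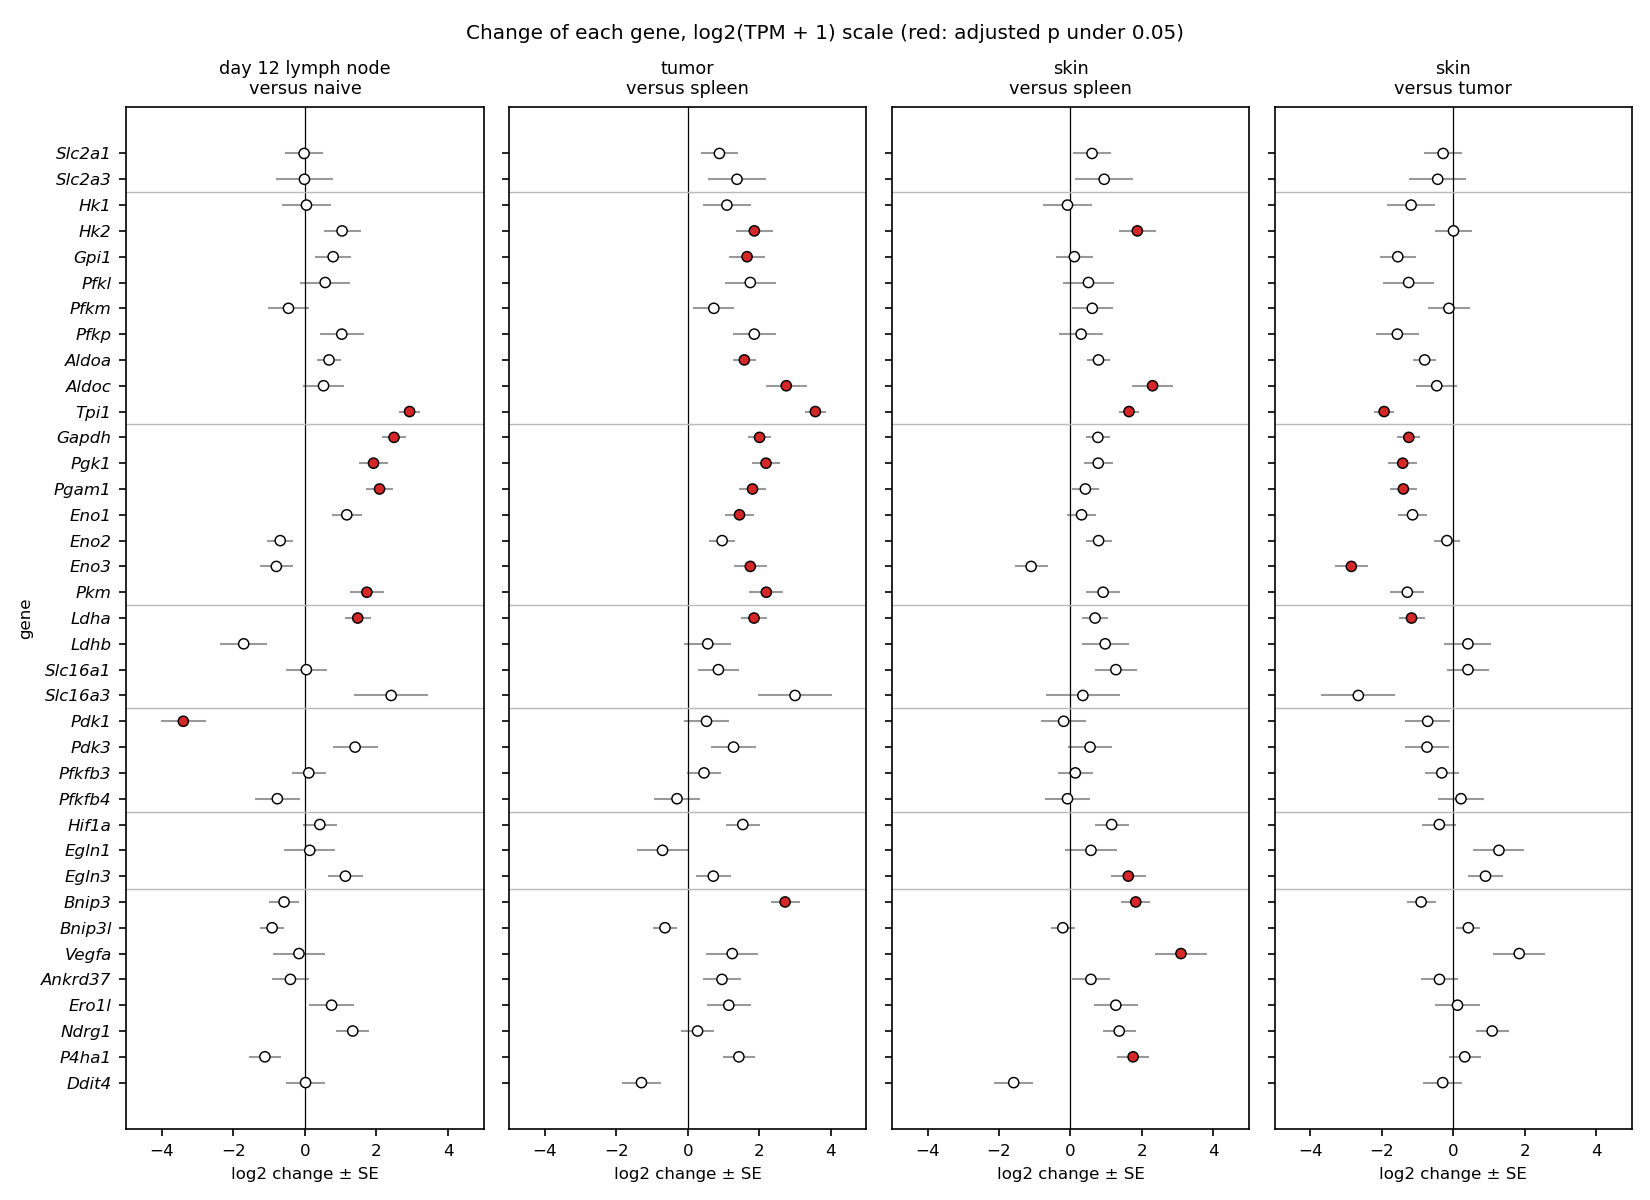
Log2 change ± SE (horizontal axes, log2(TPM + 1) scale) of each of the 37 genes in 4 comparisons, filled red where the adjusted p is under 0.05. The 13 filled points of tumor versus spleen are all to the right, as are the 7 of skin versus spleen, while the 6 of skin versus tumor are to the left.

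Tumor and day 12 lymph node cells, both high in glycolytic genes, were compared directly. Of 37 genes, 5 were higher in tumor and none lower (13.5%), beside 6.97% of all genes, with 4.55% higher. Groups did not overlap for 19 genes higher in tumor and 2 lower, beside 20.1% and 22.2% of all genes. Bnip3 had the largest change, from 5.21, 5.23, 4.79 and 4.07 TPM on day 12 to the tumor values above (3.87 ± 0.41, adjusted p = 1.60e-07). Day 12 libraries in fact held less Bnip3 than naive libraries, at 7.65, 7.57, 6.96 and 8.72 TPM, although that difference was not called. Eno3 rose by 2.37 ± 0.47 (adjusted p = 0.00142), from 5.96, 5.13, 4.63 and 5.27 TPM. Aldoc rose by 2.35 ± 0.58 (adjusted p = 0.0109), Aldoa by 1.19 ± 0.32 (adjusted p = 0.0213) and Tpi1 by 1.18 ± 0.29 (adjusted p = 0.0105). The Aldoa call was lost without day 12 replicates 1, 2 or 4 or tumor replicates 1 or 2, at 0.0557 to 0.0606. The Aldoc call was lost with a pseudocount of 0.1 (adjusted p = 0.114).

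For Ldha, Pgk1 and Pgam1 the group means of tumor and day 12 were close, at 1562 and 1575, 319 and 309, and 297 and 296 TPM. Gapdh stood at 2587 ± 581 TPM in tumor and 2079 ± 204 TPM on day 12, with overlap between the groups. None of these 4 was called. Fitted on these 2 groups alone, 19 genes were called, beside 41.4% of all genes. Without the 6 libraries low in T cell transcripts 11 genes were higher in tumor, beside 11.8% of all genes called in either direction. Melanocyte and melanoma markers summed to 7.19 to 10.4 TPM on day 12, and erythroid markers to 0.85 to 2.62 TPM, against the tumor sums above. Day 12 sums of keratinocyte (9.29 to 11.65 TPM), stromal and endothelial (28.0 to 39.0 TPM), myeloid (160 to 198 TPM), lung epithelial (2.91 to 4.32 TPM) and hepatocyte markers (2.7 to 5.32 TPM) were also all below those of tumor, where lung epithelial markers reached 22.3 to 41.0 TPM. B cell (219 to 300 TPM) and NK cell markers (29.7 to 32.9 TPM) were higher on day 12, the NK cell sums of tumor being 11.6 to 20.3 TPM. Of the 7 NK cell genes, only 3 reached 1 TPM in a day 12 library, and 6 in a tumor library. The part of all these markers in the results was not tested.

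Skin cells were compared with spleen cells. Of 37 genes, 7 were called (18.9%), all higher, beside 7.68% of all genes, with 4.33% higher. They were 4 of 11 hypoxia genes and 3 of 26 glycolytic genes. Skin libraries lay wholly above spleen libraries for 3 genes of each kind, beside 3.4% of all genes. Median log2 changes were 1.27 over the hypoxia genes, 0.61 over the glycolytic genes and -0.12 over all genes.

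Vegfa stood at 14.3, 14.81, 15.77 and 5.99 TPM in skin and at 0.57, 0.4, 0.1 and 1.23 TPM in spleen, a rise of 3.09 ± 0.73 (adjusted p = 0.00642). All skin libraries were above all spleen libraries, and outside skin the highest values were those of 1 lung library, at 20.26 TPM, and 2 liver libraries, at 14.35 and 19.65 TPM. Bnip3 read 44.06, 57.87, 55.07 and 28.04 TPM in skin, above every spleen library (1.83 ± 0.41, adjusted p = 0.00400). P4ha1 read 43.35, 42.04, 38.1 and 13.28 TPM in skin (1.75 ± 0.45, adjusted p = 0.0120), with skin replicate 4 inside the spleen range. Without spleen replicate 2 or skin replicate 1 its adjusted p was 0.0770 or 0.0515. Egln3, an oxygen-sensing prolyl hydroxylase that HIF itself induces, read 13.26, 17.96, 8.3 and 7.14 TPM in skin and 4.14, 8.19, 0.52 and 2.22 TPM in spleen. It rose by 1.62 ± 0.50 (adjusted p = 0.0405), but the groups overlap, and the call was lost without spleen replicate 3 or 4 or skin replicate 1 or 2, with adjusted p between 0.0897 and 0.200. It was lost with no filter (0.0642) and a pseudocount of 0.1 (0.266) too.

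Of the enzymes, Tpi1 read 152.84, 202.51, 177.41 and 106.47 TPM in skin, each above the highest spleen library (1.64 ± 0.29, adjusted p = 0.000294). Hk2 read 6.6, 5.27, 6.29 and 5.48 TPM in skin (1.87 ± 0.52, adjusted p = 0.0206) and Aldoc 18.47, 19.67, 9.79 and 6.04 TPM (2.30 ± 0.58, adjusted p = 0.0109). Neither overlapped spleen. The Hk2 call was lost without spleen replicate 2 or 3 or skin replicate 1, at 0.0531, 0.0718 and 0.0564, and with array weights (0.0704), and the Aldoc call without spleen replicate 3, at 0.0660.

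Skin replicate 4 had the fewest T cell identity transcripts of its group, 5618 TPM against 25559 to 34547 TPM. It also had the highest keratinocyte sum of the 11 markers, 3644 TPM, against 183 to 1665 TPM in the other skin libraries and 11.8 to 29.4 TPM in spleen. Krt5 and Krt14, defining keratins, were detected in all 4 skin libraries. Without this library 11 genes were called, beside 6.78% of all genes, and without the 6 libraries low in T cell transcripts 23 were called, all higher, 16 glycolytic and 7 hypoxia genes, beside 16.5% of all genes. Fitted on skin and spleen alone, only Vegfa was called, beside 1.37% of all genes. B cell markers summed to 26.25 to 140 TPM in skin and 1882 to 19115 TPM in spleen, and NK cell markers to 2.67 to 7.55 and 12.9 to 108 TPM. Stromal and endothelial markers were higher in skin, at 124 to 535 TPM against 14.3 to 58.9 TPM. Myeloid markers overlapped, at 85.0 to 7758 TPM in skin and 879 to 9339 TPM in spleen. The part of these other cells in the results was not tested.

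Skin and tumor were then compared directly. Of 37 genes, 6 were lower in skin and none higher (16.2%), beside 7.34% of all genes, with 3.54% lower. All 6 were glycolytic. Skin libraries lay wholly below tumor for 13 genes and wholly above for 2, beside 9.0% and 6.49% of all genes. Eno3 read 3.42, 3.19, 5.69 and 2.18 TPM in skin, far under every tumor library, and was lower by a log2 change of -2.85 ± 0.47 (adjusted p = 0.000118). Tpi1 was lower by -1.93 ± 0.29 (adjusted p = 3.24e-05), and these 2 calls held in every fit that left out a library.

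Pgk1 (-1.41 ± 0.40, adjusted p = 0.0254), Pgam1 (-1.40 ± 0.38, adjusted p = 0.0183), Gapdh (-1.24 ± 0.33, adjusted p = 0.0147) and Ldha (-1.17 ± 0.36, adjusted p = 0.0457) were lower too. In skin replicates 1 to 4, Gapdh read 1410.81, 1568.14, 1534.92 and 390.31 TPM and Ldha 780.47, 1072.82, 922.42 and 286.62 TPM. Pgk1 read 119.15, 172.87, 144.9 and 64.68 TPM and Pgam1 107.41, 148.27, 147.55 and 64.71 TPM. Replicate 4 was the lowest in all 4 genes, and without it their adjusted p lay between 0.0572 and 0.192. Without tumor replicate 1 it lay between 0.0593 and 0.135. Leaving out either library left 2 genes called, with the share of all genes called in those fits not given here. Ldha also lost its call without skin replicate 1 or any other tumor library, at 0.0622 to 0.0900, and Pgk1 without skin replicate 1 or tumor replicate 2 or 3, at 0.0511 to 0.0610. Fitted on these 2 groups alone, Gapdh (0.228) and Ldha (0.194) were not called, and Ldha was lost with no filter (0.0753) and a pseudocount of 0.1 (0.0583). With the 6 libraries low in T cell transcripts left out, 12 were called, 10 lower and 2 higher, beside 14.1% of all genes. Erythroid markers summed to 16.95 to 596 TPM in skin and 3609 to 12467 TPM in tumor, melanocyte and melanoma markers to 7.72 to 216 and 429 to 998 TPM, and NK cell markers to 2.67 to 7.55 and 11.6 to 20.3 TPM, none of them overlapping. Keratinocyte sums overlapped, at 183 to 3644 TPM in skin and 86.05 to 553 TPM in tumor. Their part in the results was not tested. The hypoxia genes had a median log2 change of 0.32, the glycolytic genes of -0.97 and all genes of -0.09.

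Lymph node memory cells, lung cells and liver cells were each compared with spleen. In lymph node memory cells no gene of the 37 was called by limma, beside 0.481% of all genes, and 1 had an unadjusted p under 0.05, beside 9.71% of all genes. In lung none was called, beside 0.111% of all genes, and 2 had an unadjusted p under 0.05, beside 7.38%. Without the 6 libraries low in T cell transcripts 9 genes were called in lymph node memory cells, among them Hif1a, Slc2a3, Pkm and Bnip3, and 3 in lung, Slc2a3, Pfkfb4 and Ero1l. All of these were higher than in spleen, and 11.7% and 4.53% of all genes were called in those fits. Lung epithelial markers summed to 33.8 to 3303 TPM in lung and 8.72 to 22.9 TPM in spleen. Lung replicate 3, kept in that fit, held 47625 TPM of B cell, 23705 TPM of erythroid and 9281 TPM of hepatocyte markers. In lymph node memory cells hepatocyte markers (1.89 to 40.7 TPM) lay below spleen (47.4 to 352 TPM), and B cell markers (453 to 5525 TPM) overlapped it. Their part in the results was not tested.

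In liver 2 genes were called (5.41%), beside 13.6% of all genes, with 2.45% higher and 11.1% lower. Hk2 was higher, by 1.61 ± 0.52 (adjusted p = 0.0373), at 1.3, 1.87, 33.46 and 3.86 TPM, so that replicate 3 stood far above the others. Without that library the adjusted p was 0.146, and without spleen replicate 1, 2 or 3 it lay between 0.0555 and 0.0926. With no filter (0.0718), array weights (0.372) or only these 2 groups (0.457) it was not called. Ankrd37 was lower, by a log2 change of -1.86 ± 0.52 (adjusted p = 0.0206), at 2.56, 0.0, 5.03 and 12.71 TPM. It was listed at 0 in liver replicate 2, without which the adjusted p was 0.107, and without spleen replicate 3 or 4 it was 0.0623 or 0.0647. With quantile normalization (0.0703), array weights (0.191) or only these 2 groups (0.455) it was not called. Without the 6 libraries low in T cell transcripts neither was called, and 2 other genes, Slc2a3 and Hif1a, were higher, beside 4.70% of all genes. In that fit the 1 remaining liver library was assumed to vary like the other groups. Both genes overlapped spleen. Leaving out liver replicate 1, the liver library richest in T cell transcripts, raised the count to 11, beside 27.1% of all genes, and leaving out liver replicate 4 raised it to 5, beside 17.6%. In the 4 liver libraries hepatocyte markers summed to 875, 11933, 3058 and 37991 TPM and myeloid markers to 1738, 17965, 15950 and 15806 TPM, and their part in the results was not tested. The median log2 change of all genes in liver was -0.53, and under quantile normalization it was -0.08. Of all called genes, 18.1% were higher in the first case and 55.3% in the second. The 4 genes of the list called under quantile normalization were all higher. The share of all genes called in that fit is not given here, so their number and direction are not read as a result about the list.

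Across the 32 libraries, the called enzymes of upper glycolysis ranged as follows: Hk2 from 0.12 to 33.46 TPM, Gpi1 from 5.87 to 333.86 TPM, Aldoa from 190.88 to 1346.34 TPM, Aldoc from 0.0 to 28.34 TPM and Tpi1 from 29.53 to 756.91 TPM. In lower glycolysis, Gapdh ranged from 338.67 to 3410.57 TPM, Pgk1 from 20.84 to 394.18 TPM, Pgam1 from 27.97 to 349.6 TPM, Eno1 from 174.92 to 1953.24 TPM, Eno3 from 1.05 to 54.12 TPM and Pkm from 45.14 to 892.91 TPM. Ldha ran from 148.58 to 1987.38 TPM and Pdk1 from 0.13 to 232.93 TPM. Of the called hypoxia genes, Bnip3 lay at 3.85 to 104.12 TPM, Ndrg1 at 1.65 to 39.39 TPM, P4ha1 at 2.42 to 43.35 TPM, Ankrd37 at 0.0 to 33.96 TPM, Vegfa at 0.0 to 20.26 TPM and Egln3 at 0.0 to 17.96 TPM.

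Of the 37 genes, 18 were called in no pairwise comparison, and many of these varied widely between libraries. The glucose carriers Slc2a1 and Slc2a3 ranged from 4.06 to 73.11 TPM and from 0.0 to 126.15 TPM. Slc2a1 was highest on average in tumor, at 50.5 ± 10.5 TPM, and Slc2a3 in lung, at 64.1 ± 28.5 TPM. The housekeeping hexokinase Hk1 ran from 0.9 to 84.22 TPM. The phosphofructokinases, which commit sugar to glycolysis, were led by the platelet form Pfkp at 6.22 to 288.45 TPM, followed by the liver form Pfkl at 0.0 to 63.81 TPM. The muscle form Pfkm stayed at 0.1 to 5.01 TPM except in liver replicate 2, at 32.12 TPM. Eno2, the neuronal enolase, did not exceed 4.53 TPM.

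Ldhb, which favours the reverse reaction to Ldha, stood at 3.53 to 120.46 TPM and was highest in skin replicate 4. The lactate carriers Slc16a1 and Slc16a3 ran from 1.52 to 41.24 TPM and from 0.0 to 187.88 TPM. Slc16a3 read 79.33, 67.93, 50.21 and 35.05 TPM in tumor and 0.51, 0.81, 0.52 and 0.35 TPM in naive cells, while 1 liver library held 187.88 TPM, 3 lung libraries 12.95 to 19.91 TPM and 1 spleen library 19.02 TPM. Among flux regulators, Pdk3 ranged from 0.0 to 91.83 TPM, highest on day 12 at 79.4 ± 10.9 TPM, where Pdk1 was low. Pfkfb3 and Pfkfb4, which make the activator of phosphofructokinase, reached at most 10.82 and 15.42 TPM.

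Of the oxygen sensors, Hif1a ranged from 13.76 to 124.28 TPM and Egln1 from 0.0 to 54.34 TPM. Egln1 was highest in 3 skin libraries, at 40.5 to 54.34 TPM, and 3 lymph node memory libraries, at 37.24 to 50.09 TPM, and low in naive, day 12 and tumor cells, at 7.52 to 13.2 TPM. Replicate 4 of those 2 groups lay at 6.6 and 7.49 TPM. Ero1l, an oxidase of protein folding, ran from 0.0 to 57.29 TPM and Ddit4, an inhibitor of mTOR, from 0.74 to 30.18 TPM. Many of the most abundant enzymes, Gapdh, Tpi1, Ldha, Pgk1 and Eno1 among them, have near-identical pseudogene copies, and the sources used here do not say how shared reads were counted.

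Shares within gene families do not move with the scaling of a library and are given as a description. Bnip3 made up 1.99% ± 0.049 of the summed Bnip3 and Bnip3l level in naive cells and 2.35% ± 0.294 on day 12. It made up 13.9% ± 0.303 in skin, where all 4 libraries lay between 13.55% and 14.27%, and 29.1% ± 4.06 in tumor, between 25.8% and 35.0%. Skin replicate 4, at 13.8%, thus fell with its group in this share although its levels of both genes were lower. In spleen, lung and lymph node memory cells the share lay between 1.64% and 6.81%. Liver varied from 2.39% to 16.4%.

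Pdk1 made up 88.6% ± 0.483 of Pdk1 and Pdk3 in naive cells and 20.7% ± 2.98 on day 12, so Pdk3 was the more abundant kinase there. Slc16a3 made up 1.75% ± 0.610 of the 2 lactate carriers in naive cells, 18.6% ± 1.11 on day 12 and 75.8% ± 6.25 in tumor. Other groups were too variable to order, spleen alone spanning 10.4% to 60.0%. Hk2 stayed the minor hexokinase in naive cells, at 0.709% ± 0.492, and reached 10.0% ± 6.64 in tumor and 21.3% ± 15.5 in skin. Both means lean on replicate 4, a library low in T cell transcripts, at 20.0% in tumor, where the others lay between 6.23% and 7.20%, and at 44.3% in skin, where the others lay between 10.7% and 15.6%. The liver value, 44.5% ± 42.4, spans 3.58% to 92.3%.

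**Figure D5:**
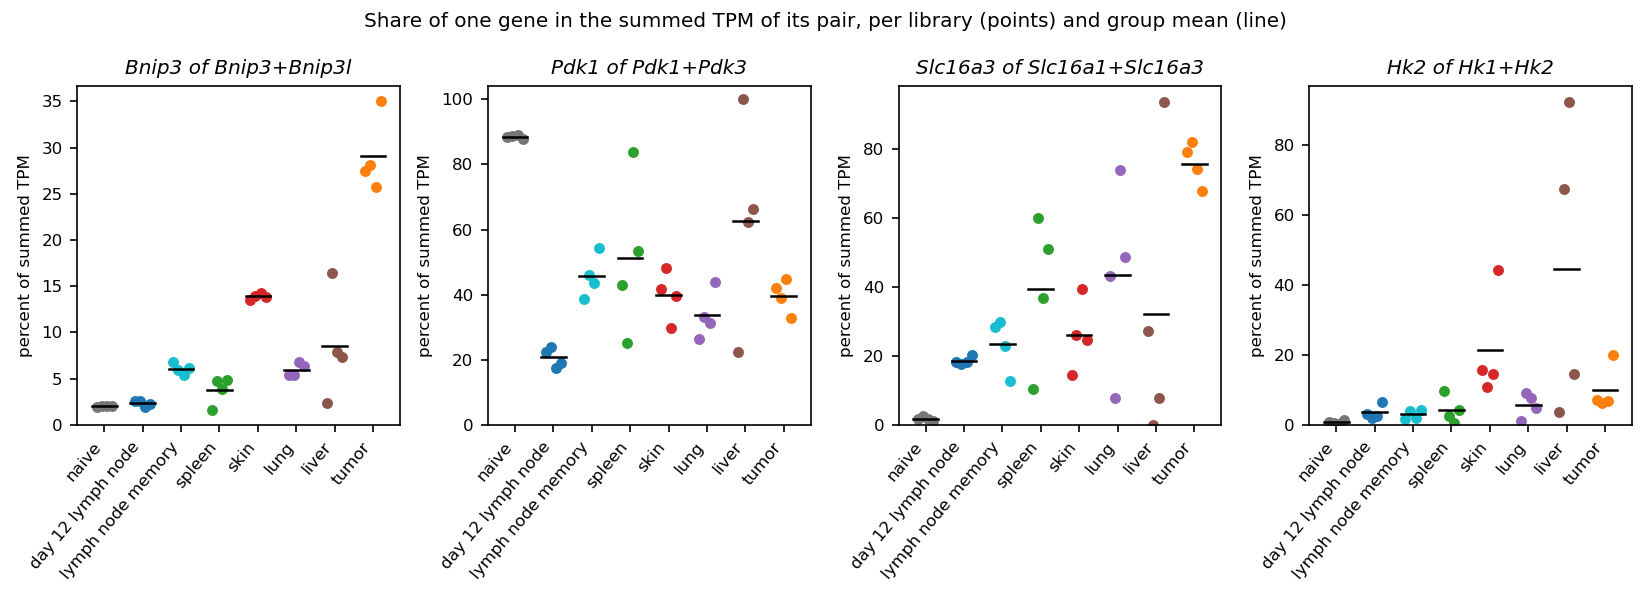
Percent of the summed TPM of a gene pair (vertical axes, from 0) held by Bnip3, Pdk1, Slc16a3 and Hk2 in each library (points), with the group mean (line). Bnip3 separates tumor, between 25.8% and 35.0%, and skin, between 13.55% and 14.27%, from the other groups, of which only liver, with 1 library at 16.4%, reaches above skin; Pdk1 is at 87.9% to 89.0% in naive cells.

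Other genes of these pathways were read from 4 further lists. Whether their calls held in the alternative fits is not given here, and the part of other cells in them was not tested. Of 32 other glycolysis genes 24 were tested, and few were called. Pdk2 fell on day 12 (-2.01 ± 0.51, adjusted p = 0.00748). Pgm2l1, a sugar bisphosphate synthase, was lower in tumor than spleen (-1.99 ± 0.45, adjusted p = 0.00541) and higher in skin than tumor (2.53 ± 0.45, adjusted p = 0.000361). Of the 8 pentose phosphate genes, 1 was called on day 12, Tkt, the transketolase (1.15 ± 0.35, adjusted p = 0.0287), 1 in liver, Pgls, lower, and none in the other 7 comparisons.

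Of 34 other hypoxia genes 32 were tested. In tumor versus spleen 6 were higher and none lower, beside 3.42% of all genes higher, led by Car9, a carbonic anhydrase and classical HIF target (3.21 ± 0.60, adjusted p = 0.000728), Bhlhe40, a transcriptional repressor (3.00 ± 0.72, adjusted p = 0.00852), and Tfrc, the transferrin receptor (2.66 ± 0.52, adjusted p = 0.00122). In tumor versus day 12, 5 were higher and none lower, beside 4.55% of all genes higher, with Car9 again the largest at 3.75 ± 0.60 (adjusted p = 0.000128). In skin versus spleen 4 were higher and none lower, beside 4.33% of all genes higher. Hilpda, a lipid droplet protein induced by HIF, led at 3.62 ± 0.50 (adjusted p = 9.35e-06), with means of 289 TPM in skin and 21.4 TPM in spleen. Hilpda was also higher in liver than spleen (3.95 ± 0.50, adjusted p = 9.62e-06) and in skin than tumor (2.33 ± 0.50, adjusted p = 0.00256). In liver 2 of these genes were higher and 2, Gys1 and Fut11, lower, beside 2.45% and 11.1% of all genes. Liver replicates 2 to 4 held T cell identity sums of only 0.117 to 0.291 of the median. In skin versus tumor 3 were higher and none lower, beside 7.34% of all genes called in either direction. On day 12 it fell (-1.75 ± 0.50, adjusted p = 0.0184) while 4 other hypoxia genes rose, beside 5.95% of all genes higher and 5.14% lower, the largest being Bhlhe40 (4.43 ± 0.72, adjusted p = 4.60e-05).

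Of the 11 upstream regulators, Txnip, which curbs glucose uptake, was the most often called. It fell by 1.94 ± 0.34 on day 12 (adjusted p = 0.000128), and it was lower than in spleen in tumor (-3.05 ± 0.34, adjusted p = 3.73e-07), liver (-1.75 ± 0.34, adjusted p = 0.00163) and skin (-1.50 ± 0.34, adjusted p = 0.00429). Its mean was 520 TPM in spleen and 64.5 TPM in tumor. On day 12, Akt1 (2.23 ± 0.54, adjusted p = 0.00495) and Irf4 (2.85 ± 0.68, adjusted p = 0.00456), a kinase and a transcription factor of T cell activation, rose, and Tsc1, a brake on mTOR, fell (-1.57 ± 0.45, adjusted p = 0.0192). Akt1 was higher in spleen than in naive cells too (1.98 ± 0.54, adjusted p = 0.0222). Myc, Mtor, Rptor and Rheb were called in none of the 9 comparisons. The comparisons that use the spleen libraries, spleen versus naive included, are not independent of each other.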

How the data were processed

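Bulk RNA-seq of 32 libraries was aligned with Bowtie to mm10, per the submitters' processing notes. The sources used here do not name the counting method or strand setting. The authors deposited the natural log of TPM + 1 for each gene and library, from which TPM were recovered. These were turned into log2(TPM + 1), so a log2 change understates that of low genes. Since the deposited values were normalized, not counts, limma 3.58.1 in R 4.3.3 was used, with a mean trend and 1 fit over the 8 groups (24 residual degrees of freedom). The 19738 genes at 1 TPM or more in at least 4 libraries were tested, with Benjamini-Hochberg adjustment over all of them and a threshold of 0.05. TPM have the same sum in each library, so depth and counting error are unknown. No libraries were identical.

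The genes and lists were chosen with earlier results of these data known. Each of the 37 genes is named with its range. Log2 changes are given where called, and library values for the genes called in most comparisons, up to 4 per role. The library values of Vegfa, Hif1a, Slc16a3 and Egln1 were chosen after they were seen. Up to 4 genes per pathway list were named by size. Alternatives were quantile normalization, array weights, a replicate block, a fit of each pair of groups alone, a pseudocount of 0.1, a 5 TPM filter, no filter, and fits without each library or without those low in T cell transcripts. The procedure was tested on simulated data. Python 3.11.15, NumPy 2.4.6, pandas 2.3.3 and Matplotlib 3.10.9 were also used.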

Additional observations from a re-analysis of the deposited data

Results flagged for a closer look

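In 21 of 296 groups of 4 values, 1 library stood apart from the other 3 by Dixon's gap ratio at its 95% critical value, which chance alone gives in about 1 group of 20. Skin replicate 4 held 8 of the 21. It was the low library for Gapdh (390.31 TPM, others 1410.81 to 1568.14), Eno1 (295.57 TPM, others 854.83 to 1024.87), Hk1 (6.88 TPM, others 35.76 to 43.87) and Pfkfb3 (1.4 TPM, others 6.46 to 7.12). It was also the low one for Hif1a (27.41 TPM, others 78.86 to 94.37), Egln1 (6.6 TPM, others 40.5 to 54.34), Vegfa (5.99 TPM, others 14.3 to 15.77) and P4ha1 (13.28 TPM, others 38.1 to 43.35). Its T cell identity sum was 0.198 of the median over all libraries.

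Tumor replicate 4 was low for Hk1 (40.16 TPM, others 66.23 to 68.02) and Hif1a (48.18 TPM, others 103.66 to 105.58), with T cell identity at 0.495 of the median. Lung replicate 2 was low for Slc16a3 (0.13 TPM, others 12.95 to 19.91) and P4ha1 (4.75 TPM, others 13.67 to 16.54). Spleen replicate 4 was high for Slc2a3 (49.95 TPM, others 14.56 to 17.81) and for Eno2 (1.09 TPM, the others listed at 0). In liver, replicate 2 was high for Pfkm (32.12 TPM, others 0.42 to 1.23) and replicate 4 for Eno2 (0.18 TPM, the others listed at 0).

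Single libraries also stood apart for Tpi1 in the day 12 lymph node (replicate 4, 238.56 TPM, others 270.7 to 273.34) and in lymph node memory cells (replicate 2, 48.17 TPM, others 71.92 to 74.29). Egln1 was low in lymph node memory replicate 4 (7.49 TPM, others 37.24 to 50.09). Ldhb was high in naive replicate 4 (46.88 TPM, others 38.09 to 39.17) and Pfkfb4 in tumor replicate 3 (2.58 TPM, others 0.92 to 1.12).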

How the results depend on the processing

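Of the 43 calls over 9 comparisons, 37 were kept without a filter, 43 with a 5 TPM filter, 38 with a pseudocount of 0.1, 32 with only the 2 groups compared, 40 with array weights, 42 under quantile normalization and 41 without the 6 libraries low in T cell transcripts. None reversed, and 26 were kept whichever library was left out. With only the 2 groups compared, the count of genes called went from 7 to 28 for day 12 versus naive, from 7 to 1 for skin versus spleen, from 2 to 0 for liver versus spleen and from 5 to 19 for tumor versus day 12. With array weights it was 29 for day 12 versus naive, 7 for spleen versus naive, 0 for liver versus spleen, 19 for tumor versus day 12 and 12 for skin versus tumor. Under quantile normalization it was 5 for spleen versus naive, 13 for skin versus spleen, 4 for liver versus spleen and 11 for skin versus tumor. Without a filter it was 1 for liver versus spleen. The share of all genes called is not given beside these counts under array weights, quantile normalization or no filter, nor for liver and spleen fitted alone. They are therefore not read as results about the 37 genes.

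Without those 6 libraries it was 18 for day 12 versus naive, 10 for spleen versus naive, 9 for lymph node memory, 23 for skin, 3 for lung and 24 for tumor, each versus spleen, 11 for tumor versus day 12 and 12 for skin versus tumor. The cause was not tested. Leaving out 1 library at a time gave 7 to 7 for day 12 versus naive, 1 to 5 for spleen versus naive, 5 to 11 for skin, 1 to 11 for liver and 10 to 16 for tumor versus spleen, 4 to 5 for tumor versus day 12, 2 to 6 for skin versus tumor, and 0 for lymph node memory and lung.

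Replicate numbers were shared between groups, but same-numbered libraries correlated between -0.393 and 0.437 in their deviations, and in no comparison did every pair exceed 0.1, so the numbers were not taken to pair the samples. Replicate 4 nevertheless had the lowest T cell identity sum in 5 of the 8 groups (lymph node memory, spleen, skin, liver and tumor), and what same-numbered libraries share was not tested. With the replicate block all 43 calls were kept, and the counts were 7, 4, 0, 8, 0, 3, 15, 5 and 6, for day 12 and spleen versus naive, lymph node memory, skin, lung, liver and tumor versus spleen, tumor versus day 12 and skin versus tumor. The share of called genes that were higher moved under quantile normalization from 59.5% to 48.2% for spleen versus naive, from 74.7% to 63.0% for lymph node memory versus spleen and from 65.3% to 48.2% for tumor versus day 12.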
